A study of Mus musculus with 8 samples.

Results

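The semaphorins, their neuropilin and plexin receptors, the ephrins and the Eph receptors were described in ventricles of mouse embryos at embryonic day 15.5 (E15.5). Members were all genes with a symbol of semaphorin classes 3 to 7, plexins A to D, neuropilins 1 and 2, ephrins A1 to A5 and B1 to B5, or EphA and EphB receptors, that reached 10 counts in at least 4 of 8 libraries. Of 56 matching symbols among 53465 listed genes, 48 met this count minimum, and all 48 were among the 15580 genes tested. They comprise 7 class 3 semaphorins, 12 semaphorins of classes 4 to 7, 2 neuropilins, 9 plexins, 4 ephrins of class A, 3 ephrins of class B, 6 EphA receptors and 5 EphB receptors. The rule uses symbols and counts alone, and it was set with earlier results of these data known.

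Poly(A) RNA was sequenced from 4 wild-type (WT) and 4 transgenic libraries, with 1 ventricle sample per library. The transgenic genotype, written Rosa26Nrg-1;Nkx5.5-Cre in the labels and given with the driver Nkx2.5-Cre in the title of the study, is called *Nrg1GOF* here. It carries a neuregulin-1 transgene at the Rosa26 locus that cells of the cardiac *Nkx2.5* lineage switch on. The labels give the controls as WT and name neither transgene nor Cre for them, so an effect of the driver alone cannot be told apart from that of the transgene. They do not say whether libraries of a genotype came from separate litters, and p values therefore measure the spread between these samples only.

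Semaphorins are secreted or membrane-bound guidance cues first known from growing axons. Class 3 semaphorins are secreted and mostly act through neuropilins, which hold the cue, and class A plexins or plexin D1, which carry the signal into the cell, whereas membrane-bound classes bind plexins directly. Ephrins are held at the cell surface, class A by a lipid anchor and class B by a membrane-spanning segment, and bind Eph receptor tyrosine kinases on neighbouring cells, with signals passing into both cells. In the embryonic heart these families are known for patterning of the outflow tract, the veins, the coronary and cardiac vessels and the cardiac nerves.

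The unit of level is CPM, counts-per-million of a library size scaled by the trimmed mean of M-values (TMM), and fold changes are *Nrg1GOF* over WT from the quasi-likelihood test of edgeR, with p values adjusted over all tested genes by the Benjamini-Hochberg method. Genes are called here when the adjusted p is under 0.05. Library totals ranged from 18754259 to 26786039 counts in 7 libraries and reached 8038641 in *Nrg1GOF* library 4, and 3 counts stood for 0.115 to 0.375 CPM. *Nrg1* itself was at 60.7, 59.7, 63.7 and 63.1 CPM in the *Nrg1GOF* libraries (1 to 4) against 4.17, 4.42, 3.07 and 4.47 CPM in the WT libraries (1 to 4). WT libraries 1 and 2 resembled each other, as did WT libraries 3 and 4. The median chi-square per gene was 1.03 within the first pair, 0.867 within the second and 2.60 to 3.25 across them, where counting noise alone gives 0.455. Among the *Nrg1GOF* libraries it was 1.07 to 1.92 between libraries 1, 2 and 4 and 2.30 to 3.13 between library 3 and the others. No label explains the WT pairs. All 6 cardiomyocyte markers were among the tested genes.

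Of the 48 members, 25 (52.1%) were called, where 28.7% of all tested genes were. Among these, 17 were higher in *Nrg1GOF*, against 15.9% of all tested genes, and 8 were lower, against 12.8%. In 25 of the 48 members no library of one genotype overlapped the range of the other, against 30.7% of all tested genes. A call together with an absolute log2 fold change of at least 0.5 was reached by 19 members, 12 higher and 7 lower, against 12.9% of all tested genes. The median log2 fold change was 0.25 over the members and -0.01 over all tested genes. The members had been listed with earlier results of these data known, so these counts describe them and carry no test of the list.

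The calls were unevenly spread over the families. All 7 class 3 semaphorins were called, 6 higher and 1 lower. Of the 11 Eph receptors 9 were called, 7 higher and 2 lower. By contrast, 2 of 12 semaphorins of classes 4 to 7 were called, both lower, and neither neuropilin was. Of 9 plexins 3 were called, 2 higher and 1 lower, and of 7 ephrins 4 were called, 2 higher and 2 lower. Relative log expression scaling left the class 3, ephrin and Eph counts as they were, and scaling by library totals changed them by 1 ephrin of class A, which was no longer called. With each WT pair summed to 1 sample, 5 class 3 semaphorins, 2 ephrins and 6 Eph receptors were called, where 2464 of 16150 tested genes were. The ephrin count was 2 also without *Nrg1GOF* library 2 or 3 or WT library 1 or 2, while leaving out any 1 library gave 6 to 7 class 3 semaphorins and 8 to 10 Eph receptors.

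**Figure D1:**
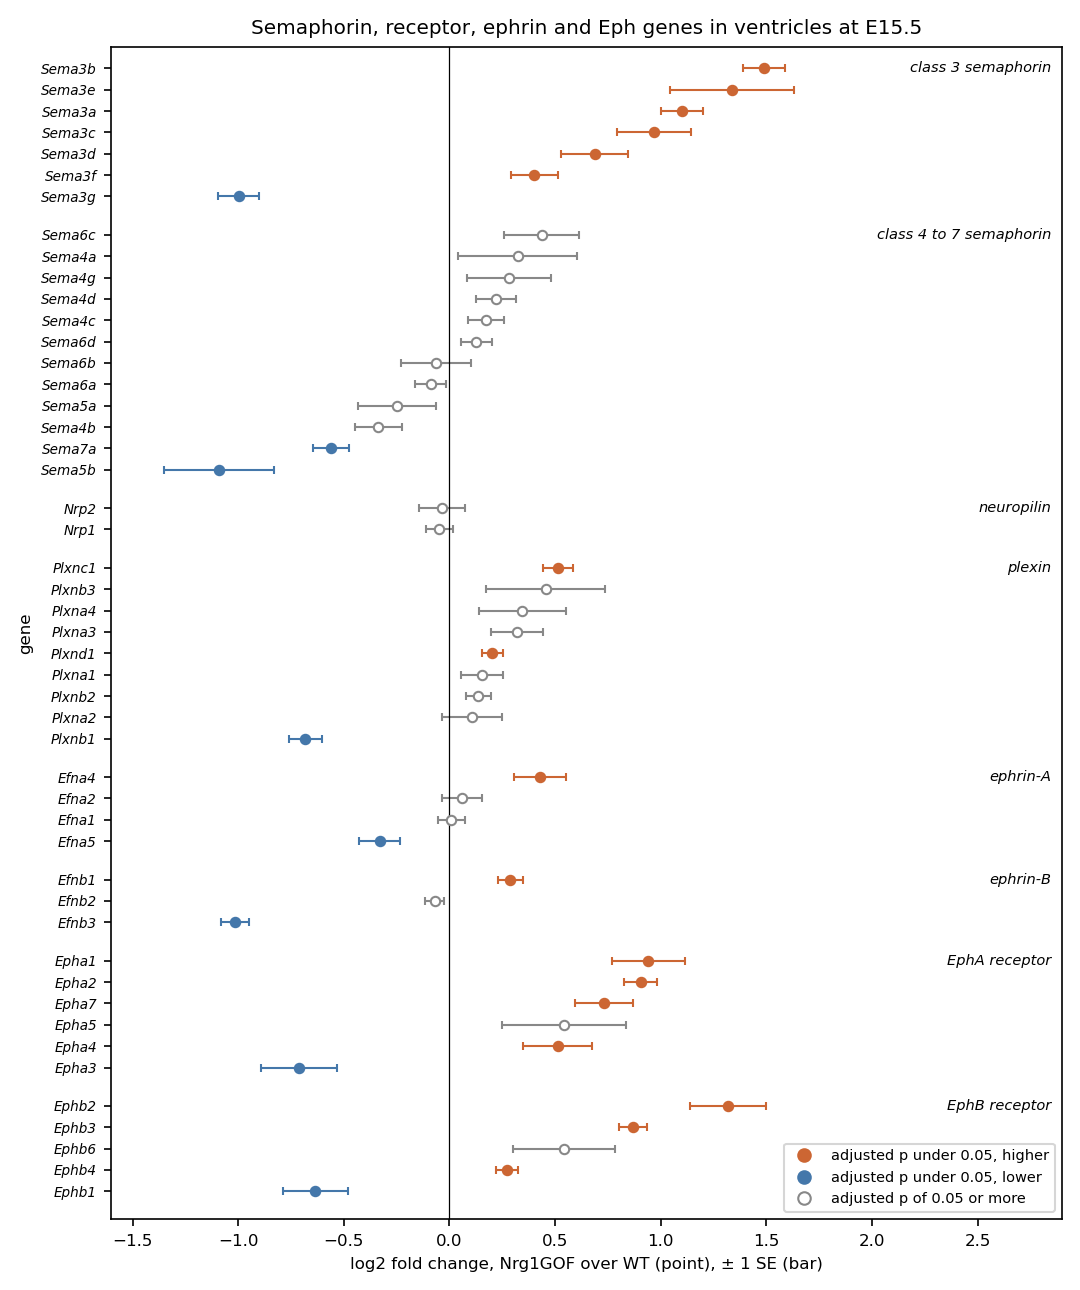
Log2 fold change of *Nrg1GOF* over WT (point) with 1 standard error to either side (bar) for each of the 48 members, by family. Filled points are called genes; 6 of 7 class 3 semaphorins lie to the right of 0, *Sema3g* lies at -1.0, and both neuropilins lie at 0 within 1 standard error.

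Among the secreted class 3 ligands, the strongest rise was that of *Sema3b* (ENSMUSG00000057969, chromosome 9, 107597674 to 107609229, minus strand, GRCm38), a semaphorin that binds both neuropilins. It was at 63.8, 64.5, 58.8 and 75.4 CPM in the *Nrg1GOF* libraries (1 to 4) against 21.6, 20.1, 26.1 and 25.1 CPM in the WT libraries (1 to 4). All *Nrg1GOF* libraries were above all WT libraries, by 2.81-fold on average (log2 fold change 1.49 ± 0.10 SE, adjusted p = 1.37e-05). *Sema3a* (ENSMUSG00000028883, chromosome 5, 13125414 to 13602565, plus strand), a repellent of axons that is known for setting the density of sympathetic nerves in the heart, was at 63.2, 50.8, 47.2 and 59.6 CPM in the *Nrg1GOF* libraries (1 to 4) against 26.4, 28, 24.8 and 23.6 CPM in the WT libraries (1 to 4). Here too the groups did not overlap, and the rise was 2.14-fold (log2 fold change 1.10 ± 0.10 SE, adjusted p = 6.79e-05). *Sema3e* (ENSMUSG00000063531, chromosome 5, 14025276 to 14256689, plus strand) differs from its relatives in binding plexin D1 without a neuropilin, and it had the fewest counts of the class, at 2.13, 2.38, 1.07 and 1.5 CPM in the *Nrg1GOF* libraries (1 to 4) against 0.688, 0.655, 0.809 and 0.656 CPM in the WT libraries (1 to 4). Its groups were apart (log2 fold change 1.34 ± 0.29 SE, adjusted p = 0.00739), on 12 to 50 counts per library. Summing each WT pair to 1 sample left the log2 fold change at 1.34 but ended the call (adjusted p = 0.0532).

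*Sema3c* and *Sema3d* rose as well, but from WT levels that fell into the WT pairs. *Sema3c* (ENSMUSG00000028780, chromosome 5, 17574281 to 17730268, plus strand), a cue for neural crest cells in the outflow tract, was at 42.6, 39.7, 33.7 and 28.4 CPM in the *Nrg1GOF* libraries (1 to 4) against 21.1, 23.7, 14.7 and 15 CPM in the WT libraries (1 to 4). Every *Nrg1GOF* library lay above every WT library, and WT libraries 3 and 4 were lower than WT libraries 1 and 2. Over all 8 libraries the level was 1.96-fold higher (log2 fold change 0.97 ± 0.17 SE, adjusted p = 0.00262), with log2 fold changes of 0.70 against WT libraries 1 and 2 alone and 1.3 against WT libraries 3 and 4 alone. *Sema3d* (ENSMUSG00000040254, chromosome 5, 12383385 to 12588948, plus strand), known for its part in placing the pulmonary veins, was at 71.6, 65.8, 57.3 and 54.4 CPM in the *Nrg1GOF* libraries (1 to 4) against 44.9, 48.7, 32.8 and 29.2 CPM in the WT libraries (1 to 4). The groups were apart by a narrower margin (log2 fold change 0.69 ± 0.16 SE, adjusted p = 0.0102), with 0.42 and 1.02 against the 2 WT pairs in the same order. Both genes were called against either pair.

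The smallest rise of the class was that of *Sema3f* (ENSMUSG00000034684, chromosome 9, 107681500 to 107710475, minus strand), which acts mainly through neuropilin 2. It was at 17.1, 21.9, 23.4 and 22.9 CPM in the *Nrg1GOF* libraries (1 to 4) against 15.2, 15.4, 18.2 and 15.5 CPM in the WT libraries (1 to 4), so that *Nrg1GOF* library 1 fell below WT library 3. The 1.32-fold difference was called in the 8 libraries (log2 fold change 0.40 ± 0.11 SE, adjusted p = 0.0217). It was not called with each WT pair summed (adjusted p = 0.0927), with WT libraries 3 and 4 as the sole controls (adjusted p = 0.106) or when *Nrg1GOF* library 2 or 3 or WT library 1, 2 or 4 was left out (adjusted p = 0.0515 to 0.0646).

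*Sema3g* (ENSMUSG00000021904, chromosome 14, 31217860 to 31230352, plus strand), a semaphorin of endothelial cells that acts through neuropilin 2, went the other way. It was at 6.58, 6.95, 8.25 and 7.5 CPM in the *Nrg1GOF* libraries (1 to 4) against 14.5, 14, 15.6 and 14.4 CPM in the WT libraries (1 to 4). Every *Nrg1GOF* library was below every WT library, by 2.0-fold on average (log2 fold change -1.0 ± 0.10 SE, adjusted p = 9.66e-05). It was the sole class 3 semaphorin to be lower, and it was called under all 20 alternative fits. Of the 7 arterial and coronary endothelial markers, *Hey1* was called higher and *Apln* and *Fabp4* lower, and their summed level was 213 to 242 CPM in *Nrg1GOF* and 254 to 289.9 CPM in WT. Their part in the fall of *Sema3g* was not tested.

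**Figure D2:**
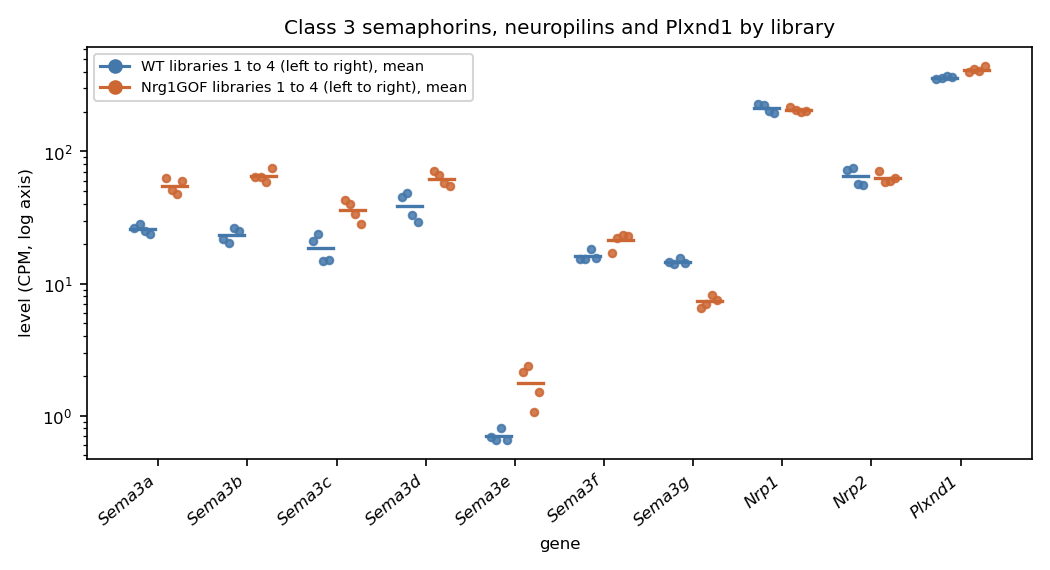
Level in CPM (log axis) of the 7 class 3 semaphorins, both neuropilins and *Plxnd1* in each library (points, libraries 1 to 4 from left to right) with the group mean (line). *Sema3a*, *Sema3b*, *Sema3c*, *Sema3d* and *Sema3e* lie higher in every *Nrg1GOF* library, *Sema3g* lower in every one, and the neuropilins overlap.

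The promoter of *Sema3g* is shown because this gene moved against the rest of its class. The 250 bases before the RefSeq transcription start (GRCm38.p6, chr14:31217623-31217872, plus strand) read as follows, with capitals marking a GC box, the letters GGGCGG on either strand, which transcription factors of the Sp family are known to bind.
Sema3g: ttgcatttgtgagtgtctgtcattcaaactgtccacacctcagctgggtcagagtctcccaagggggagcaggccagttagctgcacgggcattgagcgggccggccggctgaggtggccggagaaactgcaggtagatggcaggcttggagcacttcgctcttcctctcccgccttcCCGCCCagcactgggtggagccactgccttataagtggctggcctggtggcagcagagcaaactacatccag
The GC box lies 72 to 67 bases before the start. Such windows were at hand for 42 of the 48 members (55 windows), and 74.5% of them held a GC box, against 32.7% of all 32851 windows and 55.6% of the 14367 windows of tested genes. Among the other class 3 semaphorins with a window, *Sema3c* and *Sema3e* held one as well. A match describes letters and is not evidence of binding.

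Expressed per kilobase of exon, so that genes of different length can be set side by side, *Sema3b* had the highest mean level of the class in either genotype. Its level went from 4.86 to 13.7 CPM per kilobase, ahead of *Sema3d* with 4.53 and 7.24 CPM per kilobase. In WT these values lay close together, with *Sema3d* the higher in WT libraries 1 and 2 and *Sema3b* the higher in WT libraries 3 and 4. Summed over the class, the level was 20.2 ± 1.15 in WT and 35.9 ± 1.63 CPM per kilobase in *Nrg1GOF* (SD, n = 4 each). Without *Sema3b* the sums were 15.4 ± 1.65 and 22.2 ± 1.41 CPM per kilobase, and the groups still did not overlap.

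Of the 7 class 3 genes, 4 are neighbours. *Sema3d*, *Sema3a*, *Sema3e* and *Sema3c* lie within 5.35 megabases of chromosome 5 (12383385 to 17730268), and all 4 rose. Another 6 tested genes lie in this stretch, of which 2 were called higher, 1 lower and 3 not. One of the higher genes was *Hgf*, which encodes hepatocyte growth factor, with a log2 fold change of 0.80 (adjusted p = 0.017, SE 0.21). *Sema3b* and *Sema3f* lie within 0.113 megabases of chromosome 9 (107597674 to 107710475), and neither of the 2 other genes tested there was called.

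*Sema3d* is known from the epicardium, and markers of the epicardium and of fibroblasts moved with genotype. Of 8 epicardial and fibroblast markers, 7 were called higher and 1 (*Tbx18*) lower, and their summed level was 3545 to 4710 CPM in *Nrg1GOF* and 2011 to 2622 CPM in WT. In WT libraries 1 and 2 the sum averaged 2618 CPM and in WT libraries 3 and 4 it averaged 2034 CPM. In bulk tissue, more cells of a type and more RNA per cell cannot be told apart, and the part of these cells in the rise of the class 3 semaphorins was not tested. Of 5 mural cell markers, 2 were called higher and 2 lower, at 945.8 to 1046 CPM in sum against 1289 to 1483 CPM. Of 2 neuron markers that were tested, *Tubb3*, a tubulin of neurons, was called higher on 5 to 71 counts per library, with a log2 fold change of 2.26 (adjusted p = 0.00266, SE 0.41), and *Elavl4* was not called. Their part in the rise of *Sema3a* was not tested. Macrophage markers were called higher in 5 of 5 cases, at 72.4 to 86.0 CPM in sum against 40.6 to 48.8 CPM. Atrial markers were called higher in 3 of 6 cases, at 1627 to 1793 CPM in sum against 1012 to 1142 CPM. Of 6 cardiomyocyte markers, 3 were called lower, at 30520 to 35480 CPM in sum against 37840 to 38730 CPM. The 6 red blood cell markers were not called, and their sums overlapped.

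Neither neuropilin, the receptors that hold most class 3 ligands, was called. *Nrp1* (ENSMUSG00000025810, chromosome 8, 128358604 to 128503363, plus strand), the main receptor of *Sema3a* and a co-receptor for vascular endothelial growth factor, was at 218, 207, 199 and 201 CPM in the *Nrg1GOF* libraries (1 to 4) against 229, 226, 203 and 197 CPM in the WT libraries (1 to 4). These ranges overlapped (log2 fold change -0.05 ± 0.06 SE, adjusted p = 0.619). *Nrp2* (ENSMUSG00000025969, chromosome 1, 62703285 to 62818695, plus strand), which prefers *Sema3f*, was at 70.9, 58.9, 59.9 and 62.8 CPM in the *Nrg1GOF* libraries (1 to 4) against 71.8, 75, 56.3 and 55.8 CPM in the WT libraries (1 to 4). It overlapped as well (log2 fold change -0.04 ± 0.11 SE, adjusted p = 0.848), and its direction depended on the WT pair, with -0.22 against WT libraries 1 and 2 and 0.18 against WT libraries 3 and 4.

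Among the plexins, the signalling receptors of all semaphorins, *Plxnd1* (ENSMUSG00000030123, chromosome 6, 115954811 to 115995005, minus strand), known from endothelial cells, was the most abundant member per kilobase, at 49.6 CPM per kilobase in WT. In CPM it was at 397, 421, 405 and 446 CPM in the *Nrg1GOF* libraries (1 to 4) against 356, 357, 369.8 and 366 CPM in the WT libraries (1 to 4). The *Nrg1GOF* libraries all lay higher, though by no more than 1.15-fold on average (log2 fold change 0.20 ± 0.05 SE, adjusted p = 0.0152). The call was lost without *Nrg1GOF* library 2 (adjusted p = 0.0511), with each WT pair summed (adjusted p = 0.112) and with either pair as the sole controls (adjusted p = 0.0627 for WT libraries 1 and 2, 0.0788 for WT libraries 3 and 4). General endothelial and endocardial markers were called higher in 4 of 8 cases, with sums of 1292 to 1391 CPM against 1191 to 1238 CPM, while *Cdh5* (VE-cadherin) and *Kdr* were not called. Their part in the *Plxnd1* difference was not tested.

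*Plxnc1* (ENSMUSG00000074785, chromosome 10, 94790866 to 94944835, minus strand), the receptor of semaphorin 7A, rose from 33.2, 32.3, 30.4 and 28.2 CPM in WT libraries 1 to 4 to 45.9, 46.8, 40.2 and 44.5 CPM in *Nrg1GOF* libraries 1 to 4. The groups were apart (log2 fold change 0.52 ± 0.07 SE, adjusted p = 0.000617). Its ligand *Sema7a* (ENSMUSG00000038264, chromosome 9, 57940112 to 57962865, plus strand), which is held at the membrane by a lipid anchor, was at 21.5, 21.8, 22.1 and 21.8 CPM in the *Nrg1GOF* libraries (1 to 4) against 32.1, 26.7, 34 and 35.5 CPM in the WT libraries (1 to 4). The ligand fell while the receptor rose, and every *Nrg1GOF* library was below every WT library for *Sema7a* (log2 fold change -0.56 ± 0.09 SE, adjusted p = 0.00115).

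*Plxnb1* (ENSMUSG00000053646, chromosome 9, 109095389 to 109119917, plus strand), the receptor of semaphorin 4D, fell from 92, 97.2, 108 and 102 CPM in WT libraries 1 to 4 to 58.1, 57.3, 70.2 and 63.5 CPM in *Nrg1GOF* libraries 1 to 4. No library overlapped, and the level was 1.6-fold lower (log2 fold change -0.68 ± 0.08 SE, adjusted p = 0.000232). Exons of *Plxnb1* overlap the opposite-strand gene *Gm7628*, which had a log2 fold change of -0.88 (adjusted p = 0.0452, SE 0.29). The ligand *Sema4d* (ENSMUSG00000021451, chromosome 13, 51685529 to 51793747, minus strand) was at 31.8, 31.4, 27.3 and 35.2 CPM in the *Nrg1GOF* libraries (1 to 4) against 25.4, 24.7, 30.9 and 26.3 CPM in the WT libraries (1 to 4). WT library 3 lay within the *Nrg1GOF* range, and the difference was not called in the 8 libraries (log2 fold change 0.22 ± 0.09 SE, adjusted p = 0.113). It was called without *Nrg1GOF* library 3 or without WT library 3 (adjusted p = 0.0437 and 0.0432). *Plxnb2*, a close relative and at 41.8 CPM per kilobase the second most abundant member on the WT mean, had groups that did not overlap but no call, with a log2 fold change of 0.14 (adjusted p = 0.121, SE 0.06). It was called higher with library totals (adjusted p = 0.0345) and with WT libraries 3 and 4 as the sole controls (adjusted p = 0.026). The WT mean of *Efnb3* was close, at 40.6 CPM per kilobase. *Efnb3* was the higher in WT libraries 3 and 4 and *Plxnb2* in WT libraries 1 and 2.

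Of the class A plexins, partners of the neuropilins, *Plxna1*, *Plxna2* and *Plxna4* differed more between the WT pairs than between the genotypes. *Plxna4* (ENSMUSG00000029765, chromosome 6, 32144268 to 32588192, minus strand) was at 116, 105, 82.3 and 94.4 CPM in the *Nrg1GOF* libraries (1 to 4) against 98.9, 102, 57.4 and 56.2 CPM in the WT libraries (1 to 4). WT libraries 1 and 2 lay inside the *Nrg1GOF* range and WT libraries 3 and 4 far below it. The log2 fold change was 0.34 (adjusted p = 0.251, SE 0.21) over 8 libraries, -0.01 against WT libraries 1 and 2 (adjusted p = 0.969) and 0.82 against WT libraries 3 and 4 (adjusted p = 0.00217). *Plxna1* (ENSMUSG00000030084, chromosome 6, 89316314 to 89362620, minus strand), a receptor of semaphorin 6D, was at 108, 104, 107 and 109 CPM in the *Nrg1GOF* libraries (1 to 4) against 109.6, 110.0, 81.5 and 84.5 CPM in the WT libraries (1 to 4). WT libraries 1 and 2 lay just above all *Nrg1GOF* libraries and WT libraries 3 and 4 below them (log2 fold change 0.15 ± 0.10 SE, adjusted p = 0.296). *Plxna2* (ENSMUSG00000026640, chromosome 1, 194618218 to 194816869, plus strand), known from neural crest cells of the outflow tract, was at 67.5, 58.4, 49 and 59 CPM in the *Nrg1GOF* libraries (1 to 4) against 62.1, 65.2, 45.1 and 44.9 CPM in the WT libraries (1 to 4). WT libraries 1 and 2 lay within the *Nrg1GOF* range and WT libraries 3 and 4 below it (log2 fold change 0.11 ± 0.14 SE, adjusted p = 0.627). With WT libraries 3 and 4 as the sole controls both genes were called higher, *Plxna1* at 0.38 (adjusted p = 0.00249) and *Plxna2* at 0.38 (adjusted p = 0.0357) on the log2 scale, and with WT libraries 1 and 2 they were at -0.04 and -0.12. *Plxna3* and *Plxnb3* were not called either, with log2 fold changes of 0.32 (adjusted p = 0.083, SE 0.12) and 0.46 (adjusted p = 0.27, SE 0.28). With the replicate block *Plxna3* and *Plxna4* were called higher (adjusted p = 0.043 and 0.0321).

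Among membrane-bound semaphorins, *Sema5b* (ENSMUSG00000052133, chromosome 16, 35541145 to 35664732, plus strand), which carries thrombospondin repeats, showed the lowest log2 fold change of all members. It was at 2.31, 1.72, 2.61 and 0.875 CPM in the *Nrg1GOF* libraries (1 to 4) against 3.75, 4.36, 4.81 and 3.89 CPM in the WT libraries (1 to 4), on 7 counts in *Nrg1GOF* library 4. All *Nrg1GOF* libraries were below all WT libraries (log2 fold change -1.09 ± 0.26 SE, adjusted p = 0.0111). The call was lost with each WT pair summed (adjusted p = 0.0612), with WT libraries 1 and 2 as the sole controls (adjusted p = 0.0566) and with all libraries thinned to the smallest total (adjusted p = 0.0558). *Sema6d* (ENSMUSG00000027200, chromosome 2, 124089969 to 124667770, plus strand), a plexin A1 ligand of the developing heart and the most abundant semaphorin per kilobase in WT, at 10.9 CPM per kilobase, was at 126, 122, 140.2 and 113 CPM in the *Nrg1GOF* libraries (1 to 4) against 106, 116, 117 and 122 CPM in the WT libraries (1 to 4). The ranges overlapped (log2 fold change 0.13 ± 0.07 SE, adjusted p = 0.226).

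The other 8 semaphorins of classes 4 to 7 had log2 fold changes from -0.34 for *Sema4b* to 0.44 for *Sema6c* and were not called. *Sema4b* came nearest (adjusted p = 0.0501) and was called, as lower, in 10 of 20 alternative fits. *Sema6c* was called higher without *Nrg1GOF* library 1 (adjusted p = 0.0226). *Sema5a* was at 78.8, 86.5, 50.5 and 50.5 CPM in WT libraries 1 to 4, with both low values in WT libraries 3 and 4, and at 64, 56.4, 57.1 and 44.8 CPM in *Nrg1GOF* libraries 1 to 4. Its log2 fold change was -0.56 against the first WT pair, where it was called lower (adjusted p = 0.0117), and 0.16 against the second (adjusted p = 0.361). Summed over classes 4 to 7, the level was 47.8 ± 2.21 CPM per kilobase in WT and 45.7 ± 2.05 CPM per kilobase in *Nrg1GOF* (SD, n = 4 each), and the groups overlapped.

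**Figure D3:**
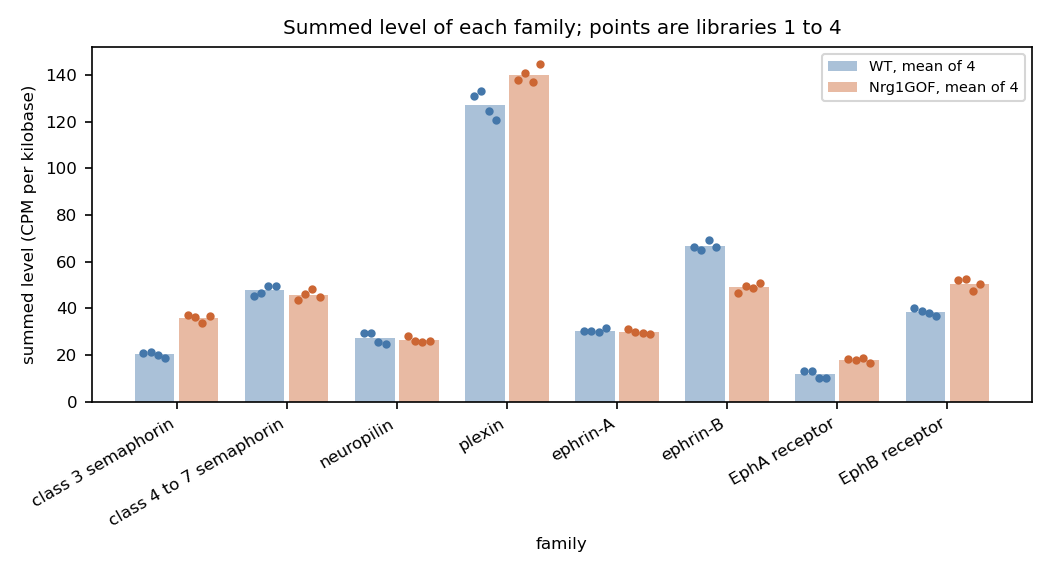
Summed level of each family in CPM per kilobase of exon, with the mean of 4 libraries as a bar from 0 and each library as a point. Class 3 semaphorins, EphA and EphB receptors and plexins lie higher in every *Nrg1GOF* library and ephrin-B lies lower in every one, while the neuropilin, class 4 to 7 semaphorin and ephrin-A sums overlap.

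Of the ephrins, *Efnb3* (ENSMUSG00000003934, chromosome 11, 69554092 to 69560205, minus strand) fell furthest. This membrane-spanning ligand of EphB receptors was at 60.9, 60.1, 64.8 and 70.5 CPM in the *Nrg1GOF* libraries (1 to 4) against 126, 123, 139 and 128 CPM in the WT libraries (1 to 4). The highest *Nrg1GOF* library lay well below the lowest WT library, a 2.02-fold lower level (log2 fold change -1.01 ± 0.07 SE, adjusted p = 1.06e-05). In WT it was the most abundant ephrin per kilobase, at 40.6 CPM per kilobase, ahead of *Efnb1* with 14.9 and *Efnb2* with 11.1 CPM per kilobase. In *Nrg1GOF* it was at 20.1 CPM per kilobase, close to *Efnb1* with 18.2 CPM per kilobase. The call for *Efnb3* held under all 20 alternative fits.

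Of the other class B ephrins, *Efnb1* rose and *Efnb2* was not called. *Efnb1* (ENSMUSG00000031217, chromosome X, 99136130 to 99148991, plus strand) was at 58.9, 69.1, 60.8 and 62.8 CPM in the *Nrg1GOF* libraries (1 to 4) against 52.4, 52, 50.5 and 50.9 CPM in the WT libraries (1 to 4). Its groups were apart, with a 1.22-fold higher level (log2 fold change 0.29 ± 0.06 SE, adjusted p = 0.0047). *Efnb2* (ENSMUSG00000001300, chromosome 8, 8617434 to 8661242, minus strand), the ephrin of arterial endothelium and the partner of EphB4, was at 69.9, 71.9, 75 and 73.2 CPM in the *Nrg1GOF* libraries (1 to 4) against 77.7, 75.3, 75.1 and 76.2 CPM in the WT libraries (1 to 4). The *Nrg1GOF* libraries lay just below the WT libraries, and the difference was not called (log2 fold change -0.07 ± 0.04 SE, adjusted p = 0.289). Summed over the 3 genes, class B ephrins were at 66.6 ± 1.84 CPM per kilobase in WT and 48.9 ± 1.91 CPM per kilobase in *Nrg1GOF* (SD, n = 4 each), with no overlap.

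Class A ephrins, which are held at the membrane by a lipid anchor, showed no common direction. *Efna1* (ENSMUSG00000027954, chromosome 3, 89271733 to 89281142, minus strand), known from vascular endothelium, was at 25.8, 26.1, 24.1 and 26.1 CPM in the *Nrg1GOF* libraries (1 to 4) against 23.3, 25.2, 26 and 26.8 CPM in the WT libraries (1 to 4). The ranges lay on top of each other (log2 fold change 0.01 ± 0.07 SE, adjusted p = 0.96). *Efna4* was called higher and *Efna5* lower, with log2 fold changes of 0.43 (adjusted p = 0.0268, SE 0.12) and -0.33 (adjusted p = 0.0295, SE 0.10). *Efna4* was not called without any one of *Nrg1GOF* libraries 1, 2 and 3 or WT libraries 1, 2 and 3 (adjusted p = 0.0522 to 0.0714), with the replicate block (adjusted p = 0.0664) or with the WT pairs summed (adjusted p = 0.106). *Efna5* was not called with library totals (adjusted p = 0.0508), with the WT pairs summed (adjusted p = 0.112), with thinned libraries (adjusted p = 0.114) or with WT libraries 3 and 4 as the sole controls (adjusted p = 0.174). It was not called either without any one of *Nrg1GOF* libraries 2, 3 and 4 or WT libraries 1 and 2 (adjusted p = 0.0613 to 0.0797). *Efna2* had a log2 fold change of 0.06 (adjusted p = 0.721, SE 0.10).

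Of the 5 EphB receptors, which bind class B ephrins, 3 rose and 1 fell. *Ephb2* (ENSMUSG00000028664, chromosome 4, 136647539 to 136835988, minus strand), known from vessels and axons, was at 13.6, 15.6, 18.7 and 12.2 CPM in the *Nrg1GOF* libraries (1 to 4) against 7.28, 7.2, 4.85 and 5.04 CPM in the WT libraries (1 to 4). The 2.49-fold rise was the highest among the receptors (log2 fold change 1.32 ± 0.18 SE, adjusted p = 0.000566), with 1.07 against WT libraries 1 and 2 and 1.62 against WT libraries 3 and 4. *Ephb3* (ENSMUSG00000005958, chromosome 16, 21204755 to 21223305, plus strand), which shares functions with *Ephb2* in several tissues, was at 81.4, 81.9, 71.3 and 78.4 CPM in the *Nrg1GOF* libraries (1 to 4) against 46.1, 44.2, 40.9 and 40.3 CPM in the WT libraries (1 to 4). Its libraries were tight within each genotype and the groups were far apart (log2 fold change 0.87 ± 0.07 SE, adjusted p = 2.96e-05). *Ephb4* (ENSMUSG00000029710, chromosome 5, 137350109 to 137378669, plus strand), the Eph receptor of venous endothelium, was at 171, 173, 154 and 166 CPM in the *Nrg1GOF* libraries (1 to 4) against 141, 136, 139 and 134 CPM in the WT libraries (1 to 4). Again no library overlapped, but the rise was 1.21-fold (log2 fold change 0.27 ± 0.05 SE, adjusted p = 0.00383).

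*Ephb1* (ENSMUSG00000032537, chromosome 9, 101922128 to 102354693, minus strand) was the EphB receptor that fell. It was at 3.4, 4.33, 4.11 and 4.12 CPM in the *Nrg1GOF* libraries (1 to 4) against 6.92, 7.09, 5.34 and 5.41 CPM in the WT libraries (1 to 4). All *Nrg1GOF* libraries lay below all WT libraries (log2 fold change -0.63 ± 0.15 SE, adjusted p = 0.0117), but WT libraries 3 and 4 were nearer to them, and against that pair alone the log2 fold change was -0.42 (adjusted p = 0.0894). The call was also lost with each WT pair summed (adjusted p = 0.0558) and with thinned libraries (adjusted p = 0.0972). *Ephb6*, whose kinase domain is inactive, was not called, with a log2 fold change of 0.54 (adjusted p = 0.125, SE 0.24). It was called higher without WT library 1 (adjusted p = 0.0322) and against WT libraries 3 and 4, at 1.02 (adjusted p = 0.00753), while against WT libraries 1 and 2 it was at 0.18 (adjusted p = 0.531). Of 5 venous and lymphatic endothelial markers, *Nr2f2* and *Flt4* were called higher and *Aplnr* and *Prox1* lower, at 221 to 242 CPM in sum against 268 to 296 CPM. Their part in the *Ephb4* difference was not tested.

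Among the EphA receptors, 4 of 6 rose. *Epha2* (ENSMUSG00000006445, chromosome 4, 141301240 to 141329384, plus strand), a receptor of ephrin A1 in endothelium and epithelium, was at 23.1, 24.4, 23.1 and 26.6 CPM in the *Nrg1GOF* libraries (1 to 4) against 13.6, 13.3, 13 and 11.8 CPM in the WT libraries (1 to 4). The lowest *Nrg1GOF* library was well above the highest WT library (log2 fold change 0.91 ± 0.08 SE, adjusted p = 5.45e-05). *Epha1* (ENSMUSG00000029859, chromosome 6, 42358487 to 42373268, minus strand) was at 3.36, 3.29, 4.28 and 3.88 CPM in the *Nrg1GOF* libraries (1 to 4) against 1.99, 2.07, 1.66 and 1.97 CPM in the WT libraries (1 to 4). It was apart between the groups (log2 fold change 0.94 ± 0.17 SE, adjusted p = 0.00276), at low levels of 31 to 100.1 counts per library. Exons of *Epha1* overlap those of *Zyx* (zyxin) on the opposite strand, and *Zyx* had a log2 fold change of 0.42 (adjusted p = 0.00173, SE 0.07). *Epha7* (ENSMUSG00000028289, chromosome 4, 28813131 to 28967499, plus strand) was at 79.5, 71.3, 76.6 and 63.2 CPM in the *Nrg1GOF* libraries (1 to 4) against 52.3, 51.4, 35.1 and 37.1 CPM in the WT libraries (1 to 4). Its groups did not overlap (log2 fold change 0.73 ± 0.14 SE, adjusted p = 0.00333), with 0.49 and 1.02 against WT libraries 1 and 2 and WT libraries 3 and 4.

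*Epha4* and *Epha3* were the less certain EphA calls. *Epha4* (ENSMUSG00000026235, chromosome 1, 77367185 to 77515088, minus strand), which binds ephrins of both classes, was at 29.4, 29.1, 28.5 and 20.9 CPM in the *Nrg1GOF* libraries (1 to 4) against 22.8, 23.1, 15.2 and 15.4 CPM in the WT libraries (1 to 4). *Nrg1GOF* library 4 fell below WT libraries 1 and 2, and the call (log2 fold change 0.51 ± 0.17 SE, adjusted p = 0.0418) was lost against WT libraries 1 and 2 alone (adjusted p = 0.221). It was also lost when any one of *Nrg1GOF* libraries 1, 2 and 3 or WT libraries 3 and 4 was left out (adjusted p = 0.0855 to 0.115). Summing each WT pair ended the call too (adjusted p = 0.108). *Epha3* (ENSMUSG00000052504, chromosome 16, 63543534 to 63864175, minus strand), known for its need in the endocardial cushions, was the EphA receptor that fell, at 6.53, 8.86, 10.5 and 5.12 CPM in the *Nrg1GOF* libraries (1 to 4) against 13.4, 12.6, 13.2 and 12.7 CPM in the WT libraries (1 to 4). The WT libraries were tight and the *Nrg1GOF* libraries spread widely below them (log2 fold change -0.71 ± 0.18 SE, adjusted p = 0.0154). The call was lost with either WT pair as the sole controls (adjusted p = 0.0622 for WT libraries 1 and 2, 0.0535 for WT libraries 3 and 4) and with each pair summed (adjusted p = 0.0862). *Epha5* was not called (adjusted p = 0.206) and was the member nearest to the count minimum, with 13, 16, 14.8 and 7 counts in *Nrg1GOF* libraries 1 to 4 and 10, 6.96, 16.2 and 11.8 counts in WT libraries 1 to 4.

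**Figure D4:**
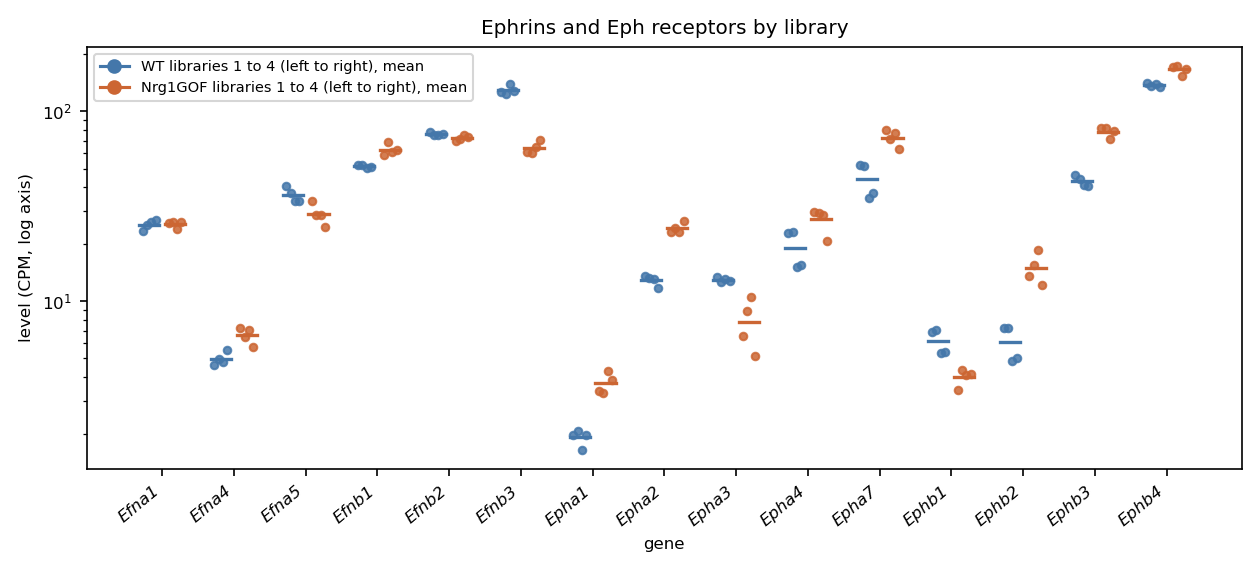
Level in CPM (log axis) of 6 ephrins and 9 Eph receptors in each library (points, libraries 1 to 4 from left to right) with the group mean (line). *Efnb3* lies lower and *Epha2*, *Ephb2* and *Ephb3* lie higher in every *Nrg1GOF* library, while WT libraries 1 and 2 lie above WT libraries 3 and 4 for *Epha4*, *Epha7*, *Ephb1* and *Ephb2*.

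The promoters of *Epha2* and *Ephb3* are shown because these receptors rose by similar amounts with little spread between libraries. The 250 bases before the RefSeq transcription starts (GRCm38.p6, chr4:141300971-141301220, plus strand and chr16:21204545-21204794, plus strand) are printed with capitals for the GC box (GGGCGG on either strand) and, in *Epha2*, for a CRE (TGACGTCA), the element that factors of the CREB family are known to bind.
Epha2: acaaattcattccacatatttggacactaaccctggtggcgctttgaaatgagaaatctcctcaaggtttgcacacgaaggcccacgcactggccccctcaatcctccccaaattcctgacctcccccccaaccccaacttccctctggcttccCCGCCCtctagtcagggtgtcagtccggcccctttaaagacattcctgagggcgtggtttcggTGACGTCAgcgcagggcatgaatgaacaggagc
Ephb3: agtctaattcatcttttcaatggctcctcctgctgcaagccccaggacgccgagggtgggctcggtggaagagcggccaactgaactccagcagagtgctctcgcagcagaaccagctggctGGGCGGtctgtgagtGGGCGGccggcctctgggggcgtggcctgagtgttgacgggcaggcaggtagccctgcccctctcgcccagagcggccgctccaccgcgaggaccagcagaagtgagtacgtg
In *Epha2* the CRE lies 33 to 26 bases and the GC box 96 to 91 bases before the start, and in *Ephb3* the GC boxes lie 128 to 123 and 113 to 108 bases before it. *Epha2* was the sole member with a CRE, 1.82% of the members' windows against 1.55% of all windows and 2.41% of those of tested genes. An AP-1 element (TGANTCA) was found in 5.45% of the members' windows against 6.75% of all windows and 4.52% of those of tested genes. An ETS core (CCGGAA) was found in 10.9% of the members' windows against 12% of all windows and 20.3% of those of tested genes. A CRE contains no AP-1 match, both strands were searched, and no motif was tested for a link to the fold changes.

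Summed per kilobase, EphA receptors were at 11.6 ± 1.63 CPM per kilobase in WT and 17.8 ± 1.01 CPM per kilobase in *Nrg1GOF*, and EphB receptors at 38.3 ± 1.47 and 50.6 ± 2.37 CPM per kilobase (SD, n = 4 each). Neither pair of ranges overlapped. *Ephb4* remained the most abundant Eph receptor, at 29.7 CPM per kilobase in WT and 35.8 CPM per kilobase in *Nrg1GOF*. *Ephb3* followed, at 6.45 and 11.8 CPM per kilobase. In *Nrg1GOF* the EphB sum was thus higher and the class B ephrin sum lower, the latter through *Efnb3* alone. Without *Efnb3* the class B ephrins summed to 26 ± 0.391 CPM per kilobase in WT and 28.8 ± 1.33 CPM per kilobase in *Nrg1GOF*, the other direction. Over all 48 members the sums were 369.5 ± 8.91 in WT and 395 ± 4.94 CPM per kilobase in *Nrg1GOF*.

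The split of the WT libraries touched many members. In 38 of 48, WT libraries 1 and 2 did not overlap WT libraries 3 and 4, a larger share than the 61.6% of all tested genes. Of the 38, 23 were higher in WT libraries 1 and 2. The gap was at least 0.5 on the log2 scale in 10 members. It was 0.82 for *Plxna4*, 0.82 for *Ephb6*, 0.71 for *Sema5a*, 0.60 for *Sema3d*, 0.59 for *Sema3c*, 0.58 for *Epha4*, 0.55 for *Ephb2*, 0.52 for *Epha7* and 0.50 for *Plxna2*, and the gap was negative for *Epha5*. Red blood cell markers moved with the split, at 12540 CPM on average in WT libraries 1 and 2 and 4909 CPM in WT libraries 3 and 4. Their part in it was not tested. With each WT pair summed to 1 sample, 16 members were called (12 higher, 4 lower), all of them among the 25. Over all genes this fit called 2464 of 16150 tested (1548 higher, 916 lower).

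**Figure D5:**
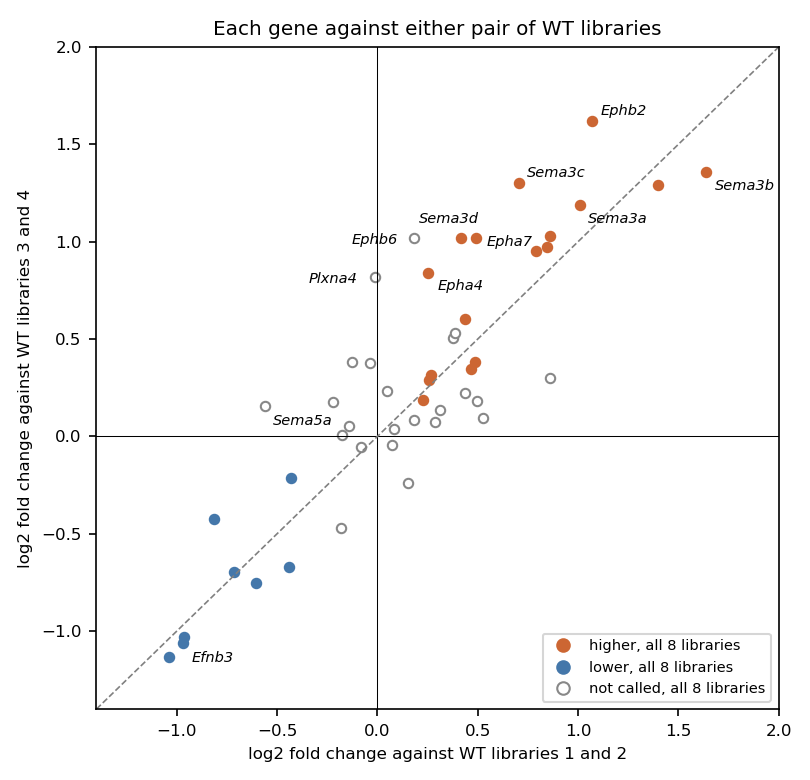
Log2 fold change of *Nrg1GOF* over WT for each member against WT libraries 1 and 2 (horizontal axis) and against WT libraries 3 and 4 (vertical axis), with the line of equal values dashed. Called members keep their direction against either pair, while *Plxna4* lies at -0.01 on one axis and 0.82 on the other.

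Downstream of these receptors, 85 co-receptors, co-ligands and cytoplasmic partners were listed, of which 81 were tested. *Chl1*, *Timd2*, *Ngef* and *Anks1b* were too low. Of the 81, 29 (35.8%) were called, 27 higher and 2 lower, against 28.7%, 15.9% and 12.8% of all tested genes. The list of semaphorin and plexin partners had 15 of 38 called (14 higher), that of ephrin and Eph partners 10 of 35 (all 10 higher) and that of vascular endothelial growth factors and receptors that share the neuropilins 4 of 8 (3 higher). *Kdr* and *Flt4* of the last list are also endothelial markers above. The median log2 fold change over the 81 was 0.15. Of the 27 genes called higher, 7 had a log2 fold change of at least 1, where 582 of all 15580 tested genes were called higher by as much.

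Among the partners named by rule, *Vegfd*, a growth factor for lymphatic and blood vessels, had the highest log2 fold change. It was at 5.76, 5.76, 10.7 and 5.12 CPM in the *Nrg1GOF* libraries (1 to 4) against 3.97, 2.73, 1.74 and 2.5 CPM in the WT libraries (1 to 4). All *Nrg1GOF* libraries lay higher, with *Nrg1GOF* library 3 far above the others (log2 fold change 1.33 ± 0.30 SE, adjusted p = 0.00832). The call was lost with WT libraries 1 and 2 as the sole controls (adjusted p = 0.0564). *Dpysl5*, a relative of the collapsin response mediators, had a log2 fold change of 1.27 (adjusted p = 0.000296, SE 0.15). *Tyrobp*, an adaptor of myeloid cells, followed with 1.13 (adjusted p = 0.00227, SE 0.20), beside the rise of all 5 macrophage markers given above, whose part in it was not tested. *Rnd2*, a small GTPase that binds plexins, had a log2 fold change of 1.02 (adjusted p = 0.000175, SE 0.11), and *Grip1*, a scaffold of class B ephrins, one of 0.72 (adjusted p = 0.00371, SE 0.14).

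At the other end, *Vegfb* was lower. It was at 86, 99.6, 100.2 and 138 CPM in the *Nrg1GOF* libraries (1 to 4) against 147, 134, 151 and 162 CPM in the WT libraries (1 to 4). *Nrg1GOF* library 4 lay above WT library 2, and the other 3 *Nrg1GOF* libraries lay below all WT libraries (log2 fold change -0.49 ± 0.13 SE, adjusted p = 0.0171). The call was lost without *Nrg1GOF* library 2 (adjusted p = 0.0573), with the WT pairs summed (adjusted p = 0.0832) and with WT libraries 1 and 2 as the sole controls (adjusted p = 0.0932). *Crmp1*, a mediator of semaphorin 3A signals, was the other gene called lower, with a log2 fold change of -0.26 (adjusted p = 0.0475, SE 0.09), and it lost its call in 16 of 20 alternative fits, 7 of them among the 8 that left out a library. The smallest called rises were those of *Rac1*, *Cfl1* (cofilin) and *Sdcbp* (syntenin), with log2 fold changes of 0.17 (adjusted p = 0.0273, SE 0.05), 0.18 (adjusted p = 0.0408, SE 0.06) and 0.18 (adjusted p = 0.0437, SE 0.06). These calls were lost in 9, 13 and 13 of the 20 alternative fits in the same order, with adjusted p up to 0.174, 0.196 and 0.246.

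The 8 symbols that missed the count minimum were *Efna3*, *Sema4f*, *Epha6*, *Epha8*, *Epha10* and the antisense genes *Plxna4os1*, *Plxna4os2* and *Plxna4os3*. *Efna3*, the nearest to it, had 14, 13, 4 and 6 counts in *Nrg1GOF* libraries 1 to 4 and 3, 3, 2 and 9 counts in WT libraries 1 to 4. The highest count in any library was 5 for *Sema4f*, 1 for *Epha6*, 2 for *Epha8*, 6.68 for *Epha10*, 7 for *Plxna4os1*, 1 for *Plxna4os2* and 0 for *Plxna4os3*. Each of the 48 members reached 10 counts in at least 2 libraries of either genotype, so none was tested on the strength of 1 group alone. Exons of *Sema4c*, *Plxna1*, *Plxna4*, *Plxnb1*, *Efna4*, *Epha1*, *Ephb1* and *Ephb4* overlap a gene on the opposite strand, and as the sources used here do not name the strand setting of the counting, their values are less certain. Exons of *Plxnc1*, *Nrp1* and *Sema4a* overlap a gene on the same strand (*Gm48718*, *Mir1903* and *Mir7011*). No strand setting separates these, so their values are less certain too.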

How the data were processed

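Poly(A) RNA of 4 *Nrg1GOF* and 4 WT ventricle samples had been sequenced as single reads of 60 bases from directional libraries. The deposited values are expected counts of each gene, made by the authors with RSEM, in which a read that fits several genes is shared between them by estimated abundance. The submitters' processing notes name cutadapt and RSEM 1.3.1 with the genome GRCm38, and the table names Ensembl release 91. The aligner and the strand setting were not given in the sources used here. The counts are not scaled, neither for sequencing depth nor for the length of the gene.

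Expected counts were rounded to whole numbers, filtered with filterByExpr and scaled by TMM, and the genotypes were compared in edgeR 4.0.16 (R 4.3.3) with the quasi-likelihood test, with genotype as sole term, two-sided, after the edgeR model of the study's methods. The 15580 tested genes shared the Benjamini-Hochberg adjustment. The standard error is the absolute log2 fold change over the square root of F. Symbols, positions and exon lengths came from GENCODE M21 (GRCm38), and promoter windows from RefSeq (GRCm38.p6). Library totals ran from 8038641 to 26786039 counts. Floors of 3 counts cover counting error only.

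Members, partner lists and marker lists were chosen with earlier results of these data known. Values in every library were given for called members with an absolute log2 fold change of at least 0.5 and for a list of 21 ligands and receptors known from the heart and vessels, and *Sema3f*, *Sema5a* and *Epha5* were added after their values were seen. Among partners, the called genes with the 5 highest and 5 lowest log2 fold changes at an average log2 CPM of at least 1 were named. Alternatives were DESeq2 1.42.0, limma-voom (limma 3.58.1), the likelihood ratio test, other scalings, filters, thresholds and depth, a replicate block, the WT pairs summed or taken alone, and leaving out each library. Scripts were tested on simulated counts.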

Additional observations from a re-analysis of the deposited data

Results flagged for a closer look

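Within each group of 4, Dixon's ratio was taken as the distance of the highest or lowest library from its neighbour over the whole range. Chance alone exceeds its critical value in about 1 of 20 groups. Of 98 groups examined, 4 exceeded it, against 4.9 by chance. WT library 3 stood above the other WT libraries for *Sema3f* (ratio 0.9184), at 18.2 CPM against 15.3 to 15.5 CPM. *Nrg1GOF* library 3 stood below the other *Nrg1GOF* libraries for *Efna1* (ratio 0.8466), at 24.1 CPM against 25.8 to 26.1 CPM. *Nrg1GOF* library 4 stood below the others for *Epha4* (ratio 0.8969), at 20.9 CPM on 167 counts against 28.5 to 29.4 CPM. The total of *Nrg1GOF* library 4 was also far from the others (ratio 0.8642), at 8038641 counts against 20578081 to 22547833.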

How the results depend on the processing

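Each member was refitted under 20 alternatives, except that *Epha5*, *Plxnb3* and *Sema3e* were too low to be tested in thinned libraries and had 19. Of the 25 called members, 16 kept call and direction under all 20, and none of the 25 reversed under any. The other 9 lost the call under at least 1 alternative, with *Efna4*, *Efna5*, *Sema3f*, *Epha4* and *Plxnd1* the 5 that lost it when a library was left out. Among the 23 members not called, 9 reversed in at least 1 alternative.

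The count of called members was 25 (17 higher, 8 lower). It moved to 16 (12 higher, 4 lower) with the WT pairs summed, a fit on fewer samples, to 16 (12 higher, 4 lower) at an adjusted p under 0.01, and to 6 (4 higher, 2 lower) at a minimum log2 fold change of 1. At an adjusted p under 0.01, 2535 of all 15580 tested genes were called (1503 higher, 1032 lower). At the minimum log2 fold change of 1, 724 of them were (582 higher, 142 lower). Leaving out 1 library gave 20 to 25 called members (13 to 17 higher, 7 to 8 lower). Partner genes numbered 29 (27 higher, 2 lower), 7 (all 7 higher, 0 lower) at the minimum log2 fold change of 1, and 21 to 29 (21 to 27 higher, 0 to 3 lower) with 1 library left out. The lower partners numbered 1 with library totals, with no filter on low counts and with thinned libraries, 4 with the replicate block, and 0 with the WT pairs summed or at an adjusted p under 0.01. Scaling by library totals moved the median of all genes from -0.01 to 0.03 and the share of higher genes among all calls from 55.4% to 65.4% (2874 higher, 1521 lower). The WT pairs summed left 2464 calls among 16150 tested genes (1548 higher, 916 lower).

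The labels do not say what libraries of equal number share. Their deviations from the group means correlated at 0.0492 to 0.199, 0.111 on average, against -0.0373 for unequal numbers, and 2 of 4 correlated best with their own number. The lowest value was too small for the numbers to be taken as pairs. The unequal numbers were not alike. *Nrg1GOF* libraries 1 and 2 correlated at 0.0492 to 0.187 with WT libraries 1 and 2. With WT libraries 3 and 4 they correlated at -0.199 to -0.0731. *Nrg1GOF* library 3 went the other way, at -0.263 and -0.0802 against 0.199 and 0.164. *Nrg1GOF* library 4 ran from -0.113 to 0.0668. The average over unequal numbers does not show this order, whose source was not tested. With the replicate block the called members numbered 27 (18 higher, 9 lower), and 24 of these were also called without it.

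Directions reversed in uncalled members alone, and the cause was not tested. With WT libraries 3 and 4 as the sole controls the log2 fold change was 0.156 for *Sema5a*, 0.00865 for *Sema6a*, 0.0547 for *Nrp1*, 0.178 for *Nrp2* and -0.0445 for *Efna1*. With WT libraries 1 and 2 it was 0.151 for *Sema6b*, -0.0368 for *Plxna1*, -0.125 for *Plxna2* and -0.0106 for *Plxna4*. With library totals it was 0.00838 for *Nrp2*, and with thinned libraries -0.0672 for *Efna1*. With 1 library left out it ran from -0.142 to 0.0486 for *Sema6b*, from -0.102 to 0.0403 for *Nrp2* and from -0.0302 to 0.0431 for *Efna1*. The fewest counts were those of *Epha5*, *Plxnb3* and *Sema3e*, with 6.96 to 16.2, 8 to 27 and 12 to 50 per library.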
